A study of Mus musculus with 6 samples.

Results

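Iron and haem handling was followed through 10 genes in epididymal fat from mice given a normal diet (ND) or a high-fat diet (HFD). The genes were Hmox1, Fth1, Ftl1, Tfrc, Trf, Slc40a1, Slc11a1, Slc11a2, Cp and Hpx, and each was found once by its Ensembl identifier among the 54532 genes of the count table. In the fat of HFD mice Slc11a1, a metal transporter of phagocytes, was 8.58-fold higher, Hmox1, the inducible haem oxygenase, 5.38-fold higher and Ftl1, the ferritin light chain, 2.79-fold higher in mean CPM than in that of ND mice. The ferroxidase gene Cp was 2.92-fold lower. With 1 of the 6 libraries left out at a time, Slc11a1 and Cp passed the test in all 6 fits. Hmox1 and Ftl1 each passed in 2 of them. The transferrin receptor gene Tfrc and the iron exporter gene Slc40a1 overlapped between the diets.

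The samples were whole epididymal fat, the visceral depot beside the epididymis, of male C57BL/6J mice, with 3 libraries per diet. The mice received either the ND, with 4.5% fat, or the HFD, with 60% fat, from 4 weeks of age for 16 weeks, and the labels list every sample as untreated. The iron content of the diets is not given in the sources used here, and nothing says whether a sample was 1 mouse or a pool, so that the p-values measure the spread between these samples. Values are counts scaled to library size by edgeR's TMM method (CPM), with count totals between 16996896 and 18859320 per library.

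Iron enters most cells bound to transferrin, which the transferrin receptor carries into endosomes, from where DMT1, the product of Slc11a2, moves it into the cytosol. Ferritin, a shell of heavy and light chains, stores what is not used, and ferroportin, the product of Slc40a1, lets iron out of the cell, where ceruloplasmin oxidizes it for transferrin to bind. Macrophages handle much of the iron of a tissue, because they take up dying cells, break down haem with haem oxygenase and store or return the iron. In adipose tissue both adipocytes and macrophages carry this machinery. When iron is short, iron regulatory proteins bind a hairpin in the mRNA, the iron-responsive element, which in a 5′ UTR stops translation and in a 3′ UTR protects the mRNA from decay.

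The hairpins are shown because they are where the protein output of ferritin and ferroportin and the mRNA level of Tfrc are set apart from transcription, while only mRNA was measured here. Transcripts of GENCODE M21 (GRCm38) were searched on the sense strand for an unpaired C, a stem of 5 base pairs and the loop CAGTGN, with at least 3 pairs among the 6 positions below the C. G-T pairs were allowed. A match lay in a UTR of 4 of the 10 genes, and of 58 of 21901 protein-coding genes in all (0.265%). The loop is in capitals in each 29-base site, written 5′ to 3′ with T for U.
Fth1, 5′ UTR, chr19:9982732-9982760, plus strand: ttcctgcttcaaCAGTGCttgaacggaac
Ftl1, 5′ UTR, chr7:45459779-45459807, minus strand: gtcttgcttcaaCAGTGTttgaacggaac
Slc40a1, 5′ UTR, chr1:45925465-45925493, minus strand: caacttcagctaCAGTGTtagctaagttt
Tfrc, 3′ UTR, chr16:32631219-32631247, plus strand: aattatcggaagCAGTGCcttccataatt
Tfrc, 3′ UTR, chr16:32631598-32631626, plus strand: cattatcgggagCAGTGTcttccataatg
Tfrc, 3′ UTR, chr16:32631663-32631691, plus strand: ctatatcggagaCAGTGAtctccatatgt
Tfrc, 3′ UTR, chr16:32631710-32631738, plus strand: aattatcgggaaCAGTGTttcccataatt
Tfrc held 4 of the sites and each of the other 3 genes held 1. In the rest of the genes no match says only that this pattern was not found.

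The diets were compared with edgeR (quasi-likelihood F-test), with p adjusted over all 15751 genes tested, with 0.05 as the threshold. Of the 10 genes, 9 had enough counts to be tested, and 3 were higher and 1 was lower, against 9.85% and 6.04% of all genes tested. The values of the diets did not overlap in 6 of the 9, against 40.9% of all genes tested (21.9% higher and 19% lower under HFD). The median log2 fold change of the 9 was 0.41, and that of all genes 0.01.

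**Figure D1:**
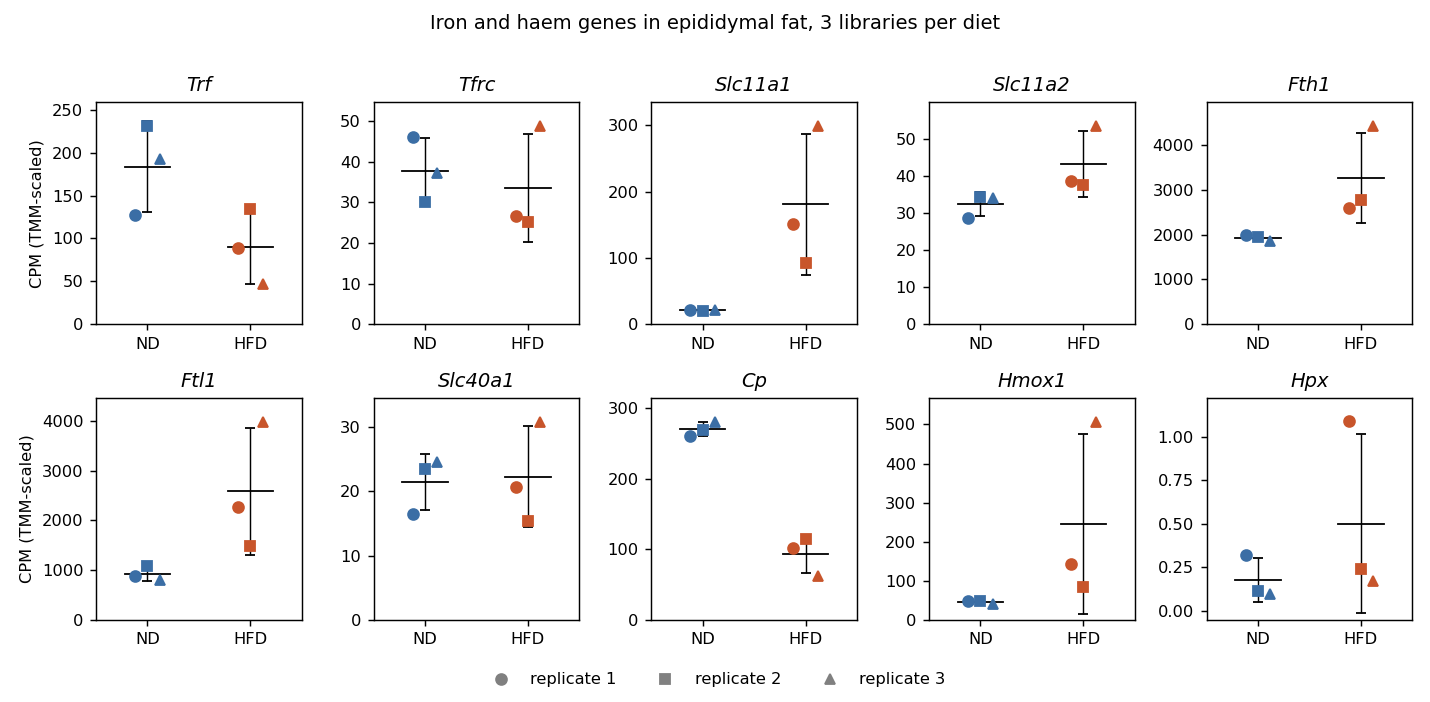
TMM-scaled CPM (vertical axes, linear) of each gene in the 3 ND (blue) and 3 HFD (orange) libraries, with the mean as a line and the SD as a bar. Hmox1, Slc11a1, Ftl1, Fth1 and, narrowly, Slc11a2 lie above every ND library in each HFD library and highest in HFD replicate 3, and Cp lies below.

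Trf (ENSMUSG00000032554, chr9:103204001-103230444) encodes transferrin, the iron carrier of plasma. Its level was 127, 231 and 193 CPM in ND fat, against 88.3, 134 and 47.1 CPM in HFD fat. The highest HFD library exceeded the lowest ND library, so the diets overlapped. The log2 fold change was -1.03 (95% interval -1.94 to -0.13), which did not pass (edgeR adjusted p = 0.110). It passed without HFD replicate 2 (adjusted p = 0.0282) and with DESeq2's Wald test (0.0298). In the annotation 63.5% of the exon bases of Trf also belong to Gm20425 on the same strand, which had 0 counts in every library, and how reads in shared exons were assigned is not stated.

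Tfrc (ENSMUSG00000022797, chr16:32608920-32632794), the receptor for transferrin, had 46.1, 30.1 and 37.1 CPM in ND fat, against 26.6, 25.0 and 48.8 CPM in HFD fat. HFD replicate 3 was the highest library of all and the other HFD libraries were the lowest. The log2 fold change was -0.18 with a 95% interval from -0.85 to 0.50 (edgeR adjusted p = 0.703), so neither a rise nor a fall within that interval could be told from none. Without HFD replicate 3 it was -0.57 (adjusted p = 0.0928).

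Slc11a1 (ENSMUSG00000026177, chr1:74375195-74386062) encodes NRAMP1, which pumps iron and manganese out of the phagosomes of macrophages. It rose from 21.2, 20.5 and 21.4 CPM in the ND libraries to 151, 92.3 and 299 CPM in HFD fat. The ND libraries were within 1 CPM of each other, while the HFD libraries were spread over a wide range, with replicate 3 highest and replicate 2 lowest. The mean was 21.1 ± 0.489 CPM in ND fat, against 181 ± 107 CPM in HFD fat (SD, n = 3 each). Its log2 fold change was 3.10 (SE 0.41, edgeR adjusted p = 0.00789). The call held in each of the 6 fits that left out 1 library, with log2 fold changes from 2.51, without HFD replicate 3, to 3.42, without HFD replicate 2.

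Slc11a2 (ENSMUSG00000023030, chr15:100387898-100425072) is the related gene for DMT1, which most cells use. It had 28.8, 34.5 and 34.2 CPM in ND fat, against 38.7, 37.7 and 53.5 CPM in HFD fat. The HFD libraries all lay above the ND libraries, narrowly in replicates 1 and 2. Its log2 fold change of 0.41 (95% interval 0.02 to 0.81) did not pass (edgeR adjusted p = 0.131). Exons of Gm5475 on the other strand cover 6.33% of its exon bases, and Gm5475 had between 0 and 3 counts.

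Fth1 (ENSMUSG00000024661, chr19:9980598-9985098), the ferritin heavy chain with the ferroxidase activity, was the most highly expressed of the genes per length, at 2273 ± 84.8 FPKM in ND fat, against 3798 ± 1166 FPKM under HFD (SD, n = 3 each). In counts scaled to library size it had 1986, 1952 and 1869 CPM in ND fat, against 2595, 2788 and 4435 CPM in HFD fat. The diets did not overlap, and HFD replicate 3 stood far above the other HFD libraries. The log2 fold change of 0.76 (SE 0.26) did not pass (edgeR adjusted p = 0.0893). It passed with DESeq2's Wald test (adjusted p = 0.0109), and it was 0.46 without HFD replicate 3.

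Ftl1 (ENSMUSG00000050708, chr7:45457944-45459884), the light chain that aids mineral formation, rose from 879, 1091 and 810 CPM under ND to 2277, 1486 and 3992 CPM in HFD fat. Every HFD library lay above every ND library, in the same order among the HFD libraries as Slc11a1. Its mean was 927 ± 146 CPM in ND fat, against 2585 ± 1281 CPM in HFD fat (SD, n = 3 each). Its log2 fold change was 1.48 (SE 0.37, edgeR adjusted p = 0.0387). The call was lost without ND replicate 1 (adjusted p = 0.135), ND replicate 2 (0.0950), ND replicate 3 (0.117) or HFD replicate 1 (0.106), and the log2 fold change without HFD replicate 3 was 1.0 (adjusted p = 0.0368). A block for the replicate number in edgeR also lost the call (adjusted p = 0.0867). So did limma on log2(FPKM + 1) (0.0565), on log2(FPKM + 0.1) (0.0576) and on log2(FPKM + 1) without its filter (0.226). Reads of Ftl1 may be shared with near-identical copies. Of 10 annotated genes that share at least 1 stretch of 50 bases with its coding sequence, Ftl1-ps1 shares 83.1% of them and had 375, 445 and 352 counts in ND fat, against 890, 470 and 1633 under HFD. Ftl2-ps had 3 to 7 counts under ND and 8 to 51 under HFD, and Ftl1-ps2 had 1 count in all. All copies together had between 2.03% and 2.62% of the counts of Ftl1. On the other strand Gm10252 covers 26.5% of its exon bases and had at most 7 counts, and the miRNA gene Gm22133 within it had 0.

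The balance of light to heavy chain transcripts was also followed. The ratio of Ftl1 to Fth1, both in FPKM, was 0.286, 0.361 and 0.280 in ND fat, against 0.567, 0.344 and 0.582 in HFD fat. HFD replicate 2 lay within the ND range and the other HFD libraries above it. The ratio was not tested.

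Slc40a1 (ENSMUSG00000025993, chr1:45908068-45926523) encodes ferroportin, the iron exporter of enterocytes, macrophages and other cells. It had 16.5, 23.5 and 24.6 CPM in ND fat, against 20.7, 15.3 and 30.9 CPM in HFD fat. The HFD libraries held both the lowest and the highest value. Its log2 fold change was 0.05 (95% interval -0.60 to 0.70, edgeR adjusted p = 0.917), and it was -0.11 without ND replicate 1 and -0.27 without HFD replicate 3.

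Cp (ENSMUSG00000003617, chr3:19957054-20009145) encodes ceruloplasmin, the copper enzyme that oxidizes exported iron. It fell from 261, 270 and 281 CPM under ND to 101, 114 and 62.7 CPM in HFD fat. All HFD libraries were far below the ND libraries, and replicate 3 was lowest. The mean was 271 ± 10.1 CPM in ND fat, against 92.7 ± 26.7 CPM in HFD fat (SD, n = 3 each). Its log2 fold change was -1.55 (SE 0.23, edgeR adjusted p = 0.00934). The call held in each of the 6 fits that left out 1 library, from -1.72 to -1.35. Hps3 on the other strand overlaps 1.13% of its exon bases and did not pass (edgeR adjusted p = 0.504).

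Hmox1 (ENSMUSG00000005413, chr8:75093621-75100589) encodes haem oxygenase 1, which opens the haem ring and frees its iron. It rose from 48.6, 48.0 and 40.2 CPM under ND to 144, 84.3 and 508 CPM in HFD fat. HFD replicate 3 was far above the other libraries, and the lowest HFD library was still above every ND library. The mean was 45.6 ± 4.69 CPM in ND fat, against 245 ± 229 CPM in HFD fat (SD, n = 3 each). Its log2 fold change was 2.43 (SE 0.63, edgeR adjusted p = 0.0414). Without HFD replicate 3 it was 1.30 and still passed (adjusted p = 0.0129). The call was lost without ND replicate 1 (adjusted p = 0.125), ND replicate 2 (0.121), ND replicate 3 (0.119) or HFD replicate 1 (0.0836), with limma-voom (0.0506) and with no filter on counts (0.174). A block for the replicate number in edgeR also lost it (adjusted p = 0.0930). So did limma on log2(FPKM + 1) (0.0719), on log2(FPKM + 0.1) (0.0703) and on log2(FPKM + 1) without its filter (0.157). Hpx (ENSMUSG00000030895, chr7:105591613-105600137), for the haem-binding plasma protein haemopexin that is made mainly in liver, had 6, 2 and 2 counts in ND fat, against 20, 4 and 3 under HFD. Most of these values were near the floor of 3 counts, and it had too few counts to be tested.

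**Figure D2:**
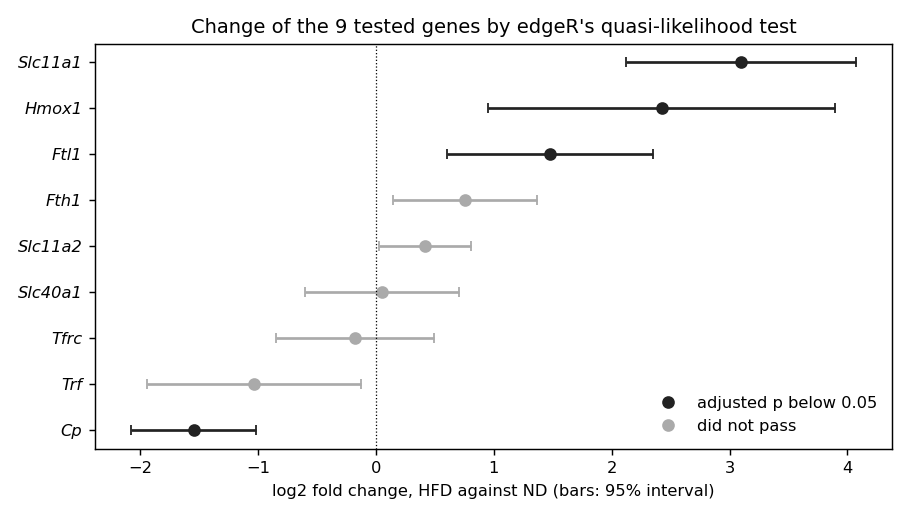
Log2 fold change of HFD against ND (horizontal axis) for the 9 tested genes, with 95% intervals from edgeR's quasi-likelihood test. Genes in black passed an adjusted p of 0.05 (Slc11a1, Hmox1 and Ftl1 higher, Cp lower), and those in grey did not.

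Per length, the order of the genes differed between the diets. Ferritin was highest in both, with Ftl1 after Fth1. Under ND the next in FPKM were Trf (56.3 ± 16.2), Cp (28.8 ± 0.910) and Hmox1 (26.5 ± 2.89), all SD with n = 3, and Trf was above Cp in each of the 6 libraries, while Cp and Hmox1 overlapped. Under HFD they were Hmox1 (141 ± 131) and Slc11a1 (49.0 ± 28.8), followed by Trf (27.2 ± 13.2) and Cp (9.74 ± 2.82). Hmox1 was above Slc11a1 in each HFD library, and Slc11a1 and Trf overlapped. Tfrc, Slc11a2 and Slc40a1 lay between 2.43 and 6.85 in mean FPKM under both diets.

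Macrophage markers moved in the same libraries. Of 8 macrophage markers 6 were higher under HFD, and Mertk and Cd14 did not pass. Of all genes tested 9.85% were higher and 6.04% lower. The summed level of the 8 lay between 1213 and 1292 CPM in ND fat, and between 2841 and 6806 CPM in HFD fat, lowest in replicate 2 and highest in replicate 3. Most of that sum was Lyz2, at 901 ± 38.5 CPM in ND fat, against 3101 ± 1521 CPM in HFD fat (SD, n = 3 each). Adgre1, which marks macrophages, was at 45.8 ± 3.54 CPM in ND fat, against 345 ± 149 CPM in HFD fat (SD, n = 3 each). Of 5 markers of lipid-associated macrophages 4 were higher, and of 5 markers of resident macrophages 0 passed by edgeR's test. The diets did not overlap in any of these 5, against 40.9% of all genes tested, and the directions differed. Mrc1 and Folr2 had log2 fold changes of 0.87 and 0.81, and Timd4, Cd209f and Lyve1 had -1.25, -0.77 and -0.40. Fewer or more cells of a type and less or more RNA per cell cannot be told apart in whole tissue.

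Set against a macrophage marker within a library, the genes gave different pictures with different markers, whose own log2 fold changes ran from -0.02 (Mertk) to 3.72 (Cd68). The counts of Slc11a1 per count of Adgre1 were 0.438, 0.491 and 0.456 in ND fat, against 0.474, 0.437 and 0.593 under HFD, and the diets overlapped. Per count of Csf1r they were 0.130, 0.135 and 0.130 in ND fat, against 0.387, 0.312 and 0.584 under HFD, and did not overlap. Over the 8 markers, a choice made after seeing the data, Slc11a1 was higher in every HFD library for 6, lower for 1 (Cd68) and overlapping for 1 (Adgre1). Hmox1 was higher for 2, lower for 1 and overlapping for 5. Ftl1 was higher for 2, lower for 4 and overlapping for 2, and Fth1 was higher for 1, lower for 6 and overlapping for 1. Markers of lipid-associated macrophages were not used in these ratios. Their log2 fold changes were 8.11 (Gpnmb), 5.84 (Spp1), 5.31 (Trem2), 2.39 (Cd9) and 1.03 (Fabp5, which did not pass), against 3.10 for Slc11a1. The part of the macrophages in the changes of Slc11a1, Hmox1, Ftl1 and Fth1 was not tested.

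Adipocyte markers were set beside the lower genes in the same way. Of 7 adipocyte markers 1 passed, the hormone gene Lep, which was higher, against 15.9% of all genes tested in either direction. The median log2 fold change of the 7 was -0.52. Their summed level lay between 21116 and 26651 CPM in ND fat and between 13470 and 29043 CPM in HFD fat, lowest in replicate 3, where Cp and Trf were lowest too. The largest part of that sum was Fabp4, at 12403 ± 1546 CPM in ND fat, against 10481 ± 3707 CPM in HFD fat (SD of 3 each). The counts of Trf per count of Plin1, which coats the lipid droplet, were 0.0641, 0.112 and 0.126 in ND fat, against 0.0859, 0.0866 and 0.0730 under HFD, with the HFD values inside the ND range. Plin1 had the lowest log2 fold change of the 7 markers, -0.79. Over all 7, again chosen after seeing the data, Trf overlapped for 4 and was lower in every HFD library for 3 (Cidec, Fabp4 and Lep). Those of Cp were 0.132, 0.131 and 0.184 in ND fat, against 0.0985, 0.0736 and 0.0972 under HFD, and each HFD library lay below each ND library, as it did for all 7 markers. Cp, Trf and Hpx are also liver genes. Of 4 hepatocyte markers, Serpina1a fell (log2 fold change -1.70, edgeR adjusted p = 0.0344), Alb had -1.92 and did not pass (adjusted p = 0.0847), and Apoa2 and Ttr had too few counts to be tested. Their summed level was at most 29.1 CPM, and their part was not tested.

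**Figure D3:**
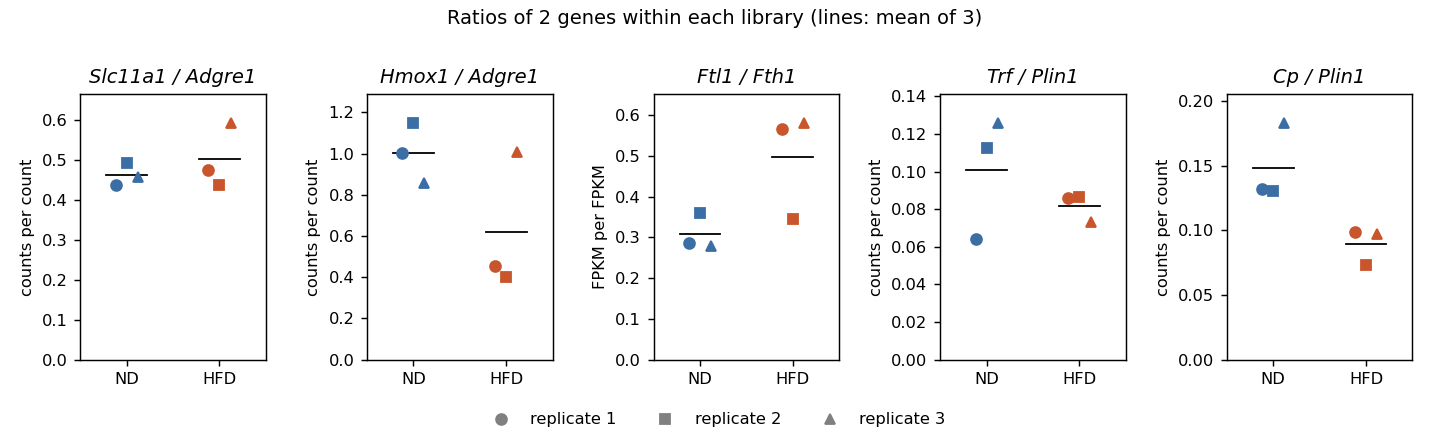
Ratio of 2 genes within each library (vertical axes, linear, in counts per count or FPKM per FPKM) for ND (blue) and HFD (orange), with the mean of 3 as a line. The diets overlap in Slc11a1 to Adgre1, Hmox1 to Adgre1, Ftl1 to Fth1 and Trf to Plin1, and Cp to Plin1 is lower in every HFD library, while other macrophage and adipocyte markers gave other results for all of these but Cp and Ftl1 to Fth1.

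Markers of red cells, haemoglobin genes among them, overlapped between the diets. The summed level of 7 erythroid markers was between 556 and 844 CPM in ND fat, and between 286 and 1019 CPM in HFD fat, and it was lowest in HFD replicate 3, where Hmox1 was highest. The haptoglobin gene Hp, whose protein captures free haemoglobin, had 3896 ± 969 CPM in ND fat, against 2222 ± 277 CPM in HFD fat (SD, n = 3 each) and did not pass (edgeR adjusted p = 0.0684). Each HFD library lay below each ND library in Hp. Cd163, the macrophage receptor for haptoglobin with haemoglobin, did not pass, with a log2 fold change of -0.05 (95% interval -0.52 to 0.41).

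The other genes of iron and haem metabolism were taken from a list of 72 in the file, of which 67 were tested. In the edgeR fit 8 of the 67 rose and 10 fell, together 26.9% of those tested against 15.9% of all genes tested. By direction, 9.85% of all genes tested were higher and 6.04% lower. The median log2 fold change was -0.15. The diets did not overlap in 31 of the 67 (46.3%), near the 40.9% of all genes tested. With 1 library left out the genes that rose numbered 1 without ND replicate 1, ND replicate 2 or HFD replicate 1 and 3 without ND replicate 3, and those that fell numbered 1, 2, 1 and 3. Of the 18 genes only Tfr2 and Alad passed in each of the 6 fits.

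In haem synthesis 0 of 13 genes rose and 2 fell, and 11 had a negative log2 fold change. For this role and those below, the shares of all genes tested were 9.85% higher and 6.04% lower. The median log2 fold change of all genes was 0.01, and no role was tested as a set. Alad, the enzyme that forms porphobilinogen, fell from 80.3 ± 5.82 to 30.5 ± 7.25 CPM (SD of 3 each, edgeR adjusted p = 0.00724) and passed in each of the 6 fits that left out 1 library. Abcb10, a mitochondrial transporter needed for haem formation, fell by 0.78 on the log2 scale (adjusted p = 0.0313). On the other strand Gm45890 overlaps 10.3% of its exon bases. Alas1, the first enzyme of the pathway outside red cells, had 192 and 228 CPM in mean and did not pass (adjusted p = 0.316).

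In haem breakdown, carriage and export 3 of 9 rose and 2 fell. Blvra, which reduces the biliverdin made by haem oxygenase, rose from 37.0 ± 4.48 to 87.9 ± 24.0 CPM, and Flvcr1, a haem exporter that also carries choline, from 11 ± 1.13 to 32.4 ± 14.4 CPM (SD of 3 each, edgeR adjusted p = 0.0129 and 0.0208). On the other strand A230020J21Rik overlaps 15.6% of the exon bases of Flvcr1. Slc48a1, which moves haem out of lysosomes, rose by 0.76 on the log2 scale (adjusted p = 0.0256), and Flvcr2, the relative of Flvcr1, fell by 1.49 (adjusted p = 0.0452). Hmox2, the constitutive haem oxygenase, had 47.6 CPM in ND fat, against 60.2 CPM in HFD fat in mean and did not pass (adjusted p = 0.170), but 40.2% of its exon bases overlap Cdip1.

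In iron uptake, reduction and transport 3 of 14 rose and 3 fell. Tfr2, a relative of the transferrin receptor known from liver and red cell precursors, had 17, 18 and 11 counts in ND fat, against 248, 138 and 151 under HFD. Every HFD library was well above every ND library, the log2 fold change was 3.60 (SE 0.35, edgeR adjusted p = 0.00395), and it passed in each of the 6 fits that left out 1 library. Its counts per count of Adgre1 were 0.0189, 0.0250 and 0.0116 in ND fat, against 0.0425, 0.0393 and 0.0172 under HFD, which overlapped, and over the 8 macrophage markers it was higher in every HFD library for 6 and overlapping for 2. Slc25a37, the mitochondrial iron importer mitoferrin, rose by 1.23 on the log2 scale (adjusted p = 0.0156). Of the Steap family of metal reductases, Steap2 and Steap1 had log2 fold changes of -1.82 and -1.80 (adjusted p = 0.0197 and 0.0442), and both were highest in ND replicate 3, the library with epithelial transcripts. Steap1 passed in 0 of the 6 fits that left out 1 library, and Steap2 did not pass without ND replicate 3 (adjusted p = 0.0503), ND replicate 1 (0.0630) or HFD replicate 1 (0.0545). Steap3 had a log2 fold change of 0.68 and did not pass (edgeR adjusted p = 0.0511), with no overlap between the diets. Steap4, named after its values were seen because it was the most abundant of the lower genes, fell from 867 ± 55.2 to 400 ± 101 CPM (SD of 3 each, edgeR adjusted p = 0.0188).

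Among the sensors and hormones 1 of 6 tested genes fell. Aco1, whose product is an iron regulatory protein when it lacks its iron-sulfur cluster and binds hairpins like those above, had 332, 375 and 251 CPM in ND fat, against 158, 198 and 155 CPM in HFD fat. The libraries did not overlap, and the log2 fold change was -0.91 (edgeR adjusted p = 0.0231). Ireb2, the other iron regulatory protein, had -0.24 (adjusted p = 0.164). The hepcidin gene Hamp had 1 count in all libraries together, and Hamp2, Hfe2 and Erfe also had too few counts to be tested.

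Among the 4 transcription factors 1 rose. Bach1, which represses Hmox1 until haem binds it, had 35.8, 42.9 and 43.2 CPM in ND fat, against 74.8, 56.9 and 111 CPM in HFD fat, a log2 fold change of 0.99 (edgeR adjusted p = 0.0348). Nfe2l2, the activator at the same sites, had 0.60 (adjusted p = 0.0607), and Keap1, which holds it back, had -0.01 (adjusted p = 0.936). In haem and haemoglobin scavenging 1 of 3 rose, Lrp1, the receptor for haemopexin with haem, with a log2 fold change of 1.04 (adjusted p = 0.0269). In storage, chaperones and oxidation 0 of 5 tested genes passed, Ncoa4, which takes ferritin to lysosomes, among them with 116 CPM in mean under either diet (adjusted p = 0.984). In iron-sulfur cluster assembly 0 of 13 rose and 2 fell, Fdx1 (-1.0, adjusted p = 0.0486) and Isca1 (-0.59, adjusted p = 0.0492).

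**Figure D4:**
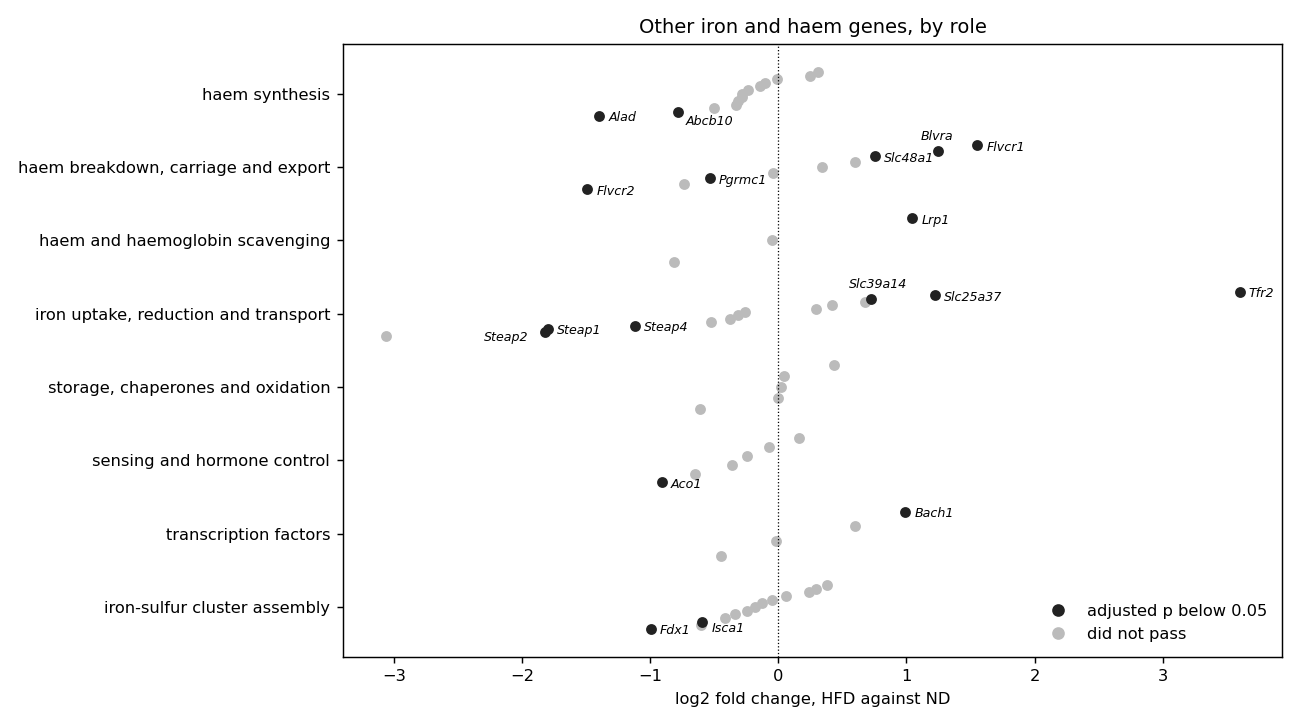
Log2 fold change of HFD against ND (horizontal axis) for the 67 tested genes of the list, 1 point per gene and 1 row per role. Named genes in black passed an adjusted p of 0.05, with Tfr2 at 3.60 the highest, and the grey point at -3.07 is Lcn2, which did not pass.

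The genes whose pattern over the 6 libraries was most like each changed gene were found among 12271 protein-coding genes above a mean log2 CPM of 1 by the root mean square difference in mean-centred log2 CPM. For Slc11a1 they were Cd300ld (0.0744), Rab7b (0.0989) and Pld3 (0.10), and for Hmox1 Akr1b8 (0.221), Bst1 (0.229) and Pstpip1 (0.234). Ftl1 was nearest to Batf (0.0457), Prune2 (0.0712) and Mmp19 (0.0868), and Cp to Smim1 (0.0942), Irak1bp1 (0.0943) and Ctf1 (0.105). The neighbours of Hmox1 were farther from it than those named for the other genes were from theirs.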

How the data were processed

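RNA-seq of 3 samples of epididymal fat from ND-fed mice and 3 from HFD-fed mice was used. The sample titles give the group and the number of each library. The methods name GRCm38, TopHat and Cufflinks, while the submitters' processing notes name HISAT2 2.0.5 and featureCounts 1.5.0-p3 and list the human build hg38. The identifiers are mouse ones, 54495 of 54532 in GENCODE M21. The authors deposited raw counts per gene and FPKM values, which were used for levels between genes. The NEBNext Ultra RNA kit that the labels name does not mark strand in its standard form, so overlapping genes on opposite strands cannot be separated. The annotation release and strand setting are not given in the sources used here.

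Counts were tested with edgeR 4.0.16 in R 4.3.3 (filterByExpr, TMM, glmQLFit with robust=TRUE, diet alone in the model, Benjamini-Hochberg correction across 15751 genes, threshold 0.05). Standard errors were derived from the F statistic, and 95% intervals from the same fit. A count of 3 corresponds to 0.149 to 0.180 CPM, which covers counting error only. Library totals covered 16996896 to 18859320 counts, and no 2 libraries were identical. The third ND library stands apart in carrying epithelial transcripts (149 CPM over 4 markers, at most 0.690 in any other), and counts without it are in the closing section.

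As alternatives, tests were repeated using DESeq2 1.42.0, voom from limma 3.58.1, other scalings and filters, robust=FALSE, a replicate block, limma on log2(FPKM + 1) or log2(FPKM + 0.1), and each library left out. Genes named beyond the 10 are those past the threshold in each role of the wider list (at most the 4 largest changes), the 3 nearest in pattern, copies of ferritin genes and genes that overlap the exons of the 10. Alas1, Hmox2, Hp, Cd163, Ireb2, Nfe2l2, Keap1, Ncoa4, Steap3, Steap4 and Lcn2 fall outside that rule and were named after their values were seen. The edgeR script was tested on simulated data, where it recovered 120 of 200 changed genes, with 10 false calls among 130. The 10 genes and the lists were chosen with earlier results of these data known.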

Additional observations from a re-analysis of the deposited data

How the results depend on the processing

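Slc11a1 and Cp kept their direction and passed in all 17 alternatives, Ftl1 passed in 9 and Hmox1 in 7 of them. The genes higher on HFD numbered 3, but 4, with Fth1, under DESeq2's Wald test, 2, without Hmox1, under limma-voom or with no filter on counts, and 1 with limma on FPKM under either pseudocount or without its filter. Those lower numbered 1, and 2, with Trf, under DESeq2's Wald test or without HFD replicate 2. Of the wider list, 10 genes were lower, but 5 with no filter on counts and 6 on FPKM with either pseudocount. On FPKM without the filter 1 was higher and 1 lower, and 649 genes were called in all against 2504. The cause was not tested.

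With 1 library left out at a time, from 1 to 3 of the 10 genes were higher and from 1 to 2 lower, from 1 to 11 of the wider list were higher and from 1 to 15 lower, and from 474 to 3940 genes were called in all. The count of higher genes was 1 without ND replicate 1, 2 or 3 or HFD replicate 1. Without ND replicate 3, 1 of the 10 genes was lower. In that fit 3 genes of the wider list were higher and 3 lower, and 1003 genes were called in all. Slc40a1, which never passed, had log2 fold changes from -0.27 (without HFD replicate 3) to 0.26 with a library left out, -0.11 without ND replicate 1, and -0.00033 on log2(FPKM + 0.1). Over the 9 tested genes and the 18 called genes of the wider list, of which the 18 could not rise above the threshold, 330 values kept their direction and side of the threshold, 123 fell below it, 3 rose above it and 3 changed sign.

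Whether the replicate numbers pair the libraries is not stated in the sources used here. Deviations of same-numbered libraries had correlations of -0.0858, -0.0556 and -0.00532 across genes. With 3 libraries per diet and no comparison with differently numbered libraries, these values cannot show whether they were paired. With the replicate block 1 gene was higher and 1886 genes were called. Hpx, Hamp and Erfe were too low at this depth.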

Other observations

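Lcn2, whose product binds iron-carrying siderophores, was counted 120, 83 and 1980 times under ND, against 81, 57 and 92 times under HFD. The ND library with 1980 is the one that carried epithelial transcripts. The log2 fold change of -3.07 (95% interval -5.78 to -0.36) did not pass (edgeR adjusted p = 0.111), and the diets overlapped.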
